A study of Mus musculus with 3 samples.

Results

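Expression of 10 genes of the epithelial-mesenchymal transition programme was followed across an untreated array and arrays from cells exposed to 0.01 uM or 1 uM hexavalent chromium, Cr(VI). They were the transcription factors Snai1, Snai2, Twist1, Twist2, Zeb1 and Zeb2, the cadherins Cdh1 and Cdh2, and the filament and matrix genes Vim and Fn1. Members were taken as every non-control probe whose gene name in the array files was 1 of these symbols, which gave 19 of 41167 probes and 10 of 27724 genes. The study used mouse C3H10T1/2 cells, an established embryonic fibroblast-like line that serves in cell transformation assays. Exposure began 24 h after 2000 cells were seeded in each flask and lasted 48 h, and the cultures were then kept in Cr(VI)-free medium until day 15, when they were split between a soft agar assay and RNA isolation. The arrays therefore describe cells harvested well after the exposure had ended. Each group had 3 flasks and 1 array, the labels do not say whether flasks were pooled, and all 3 arrays lay on 1 slide read in 1 scan.

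Epithelial cells hold together through E-cadherin, the product of Cdh1, whose cytoplasmic tail is tied to the actin skeleton by catenins. In the mesenchymal transition, the zinc-finger factors Snai1, Snai2, Zeb1 and Zeb2 bind E-box sequences in Cdh1 and other epithelial genes and repress them, while the basic helix-loop-helix factors Twist1 and Twist2 favour the mesenchymal state. N-cadherin (Cdh2), the intermediate filament protein vimentin (Vim) and the matrix glycoprotein fibronectin (Fn1) are usual products of that state. Fibroblasts are mesenchymal to begin with, so in them these genes describe the state of a mesenchymal cell and not its origin from an epithelium.

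The sequences of the 3 Fn1 probes are shown first because they read separate stretches of 1 transcript, and all 3 gave a lower signal at 1 uM. They are written 5′ to 3′ in the sense of the Fn1 RNA, in lower case throughout, with mm9 positions on the minus strand.
A_51_P100856, chr1:71637422-71639659: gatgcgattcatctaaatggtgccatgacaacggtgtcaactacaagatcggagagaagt
A_52_P11817, chr1:71644127-71644186: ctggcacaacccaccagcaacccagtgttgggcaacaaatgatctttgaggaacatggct
A_52_P299974, chr1:71673888-71674646: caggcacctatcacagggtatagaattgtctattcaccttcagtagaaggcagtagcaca
Each probe is 60 bases long and is listed against the accession NM_010233, at transcript positions 7189, 6568 and 2688. The first covers 2238 bases of the genome and the last 759, so both cross at least 1 exon junction. All 3 hold an open reading frame across their whole length in at least 1 forward frame.

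Signal is given below as log2 of the processed intensity minus the 75th percentile of its array, so a level of 0 equals that percentile and a difference of 1 is 2-fold. By the scanner software's own detection call, 41.8% of probes were well above background untreated, 36.4% at 0.01 uM and 41.5% at 1 uM. Replicate spots of a probe differed by a median SD of 0.055, 0.056 and 0.058 in the same order. The software's error model put the median technical standard error (SE) of a difference at 0.21 for 1 uM against untreated. With 1 array in each group there was no replicate, no test between conditions was possible, and no SE below includes the spread between cultures. In bulk RNA, fewer cells of a kind and less RNA in each cell cannot be told apart. Levels are compared between arrays for the same probe. Across probes they serve to pick the brightest of a gene, to average probes in 1 alternative and to sum marker lists. They are not read as relative expression of different genes.

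Of the 19 probes, 13 were well above background on all 3 arrays, 1 on some arrays and 5 on none. Of the 10 genes, 9 had a probe well above background on every array, and Cdh1 had none. At 1 uM against untreated, 14 probes could be compared, of which 1 was higher and 4 were lower by 2-fold or more. Among all 18096 probes compared, 5.29% were higher and 4.71% lower by that much. With the brightest probe standing for each gene, 0 of 9 genes were higher and 2 (Snai1 and Fn1) were lower by 2-fold or more, where 5.57% and 4.86% of 12450 genes were. The median difference was -0.27 over the 9 genes and -0.04 over all genes compared.

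**Figure D1:**
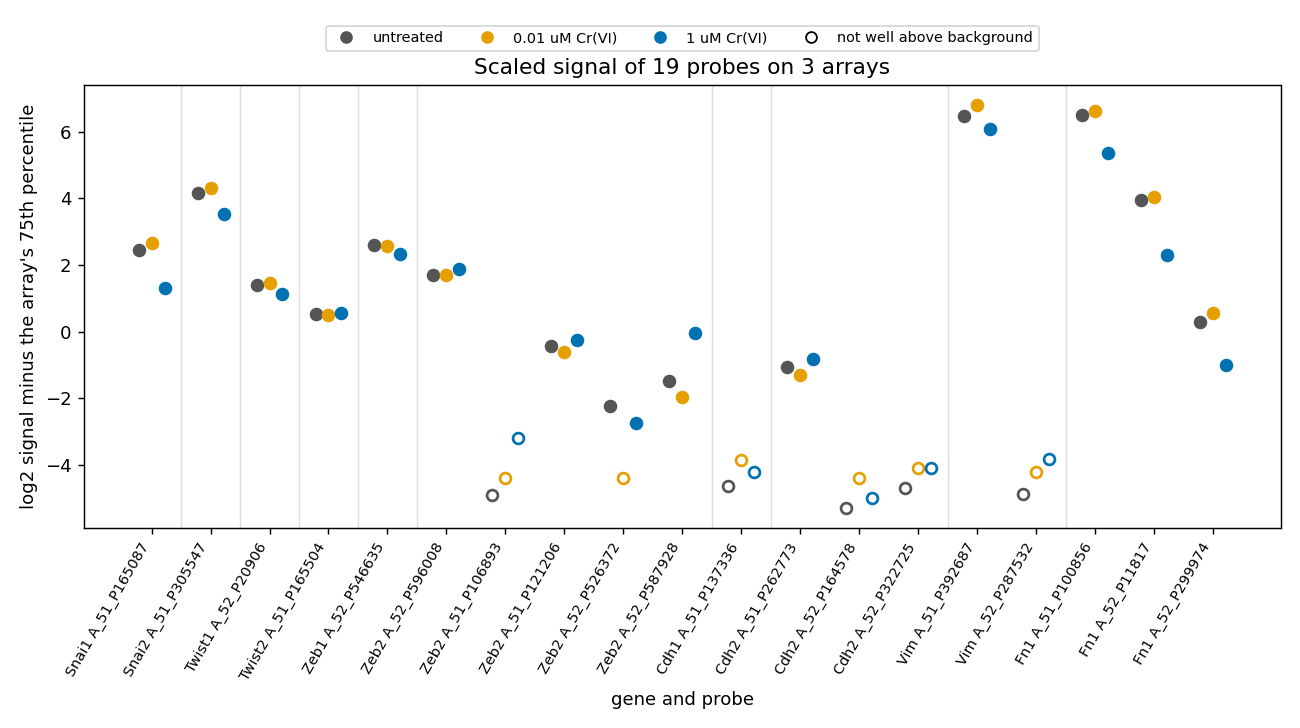
Scaled log2 signal (vertical axis, relative to the 75th percentile of the array) of the 19 probes (horizontal axis, grouped by gene) on the untreated, 0.01 uM and 1 uM arrays. Filled points were well above background and open points were not. Among probes well above background on all 3 arrays, the 1 uM point lies lowest for Snai1, Snai2, Twist1, Zeb1, Vim and Fn1. It lies highest for Twist2, Zeb2 and Cdh2, and the Cdh1 points are all open.

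Both Snail repressors had their lowest level on the 1 uM array. Snai1, a repressor of Cdh1 that is induced early in the transition, is read by probe A_51_P165087 at chr2:167368073-167368132 of mm9, on the plus strand. Its level was 2.44 untreated, 2.67 at 0.01 uM and 1.30 at 1 uM. The 2 arrays without the high dose thus lay close together and the 1 uM array stood below both. The 1 uM array was 2.21-fold lower than the untreated array (log2 difference -1.15, technical SE 0.20) and 2.59-fold lower than the 0.01 uM array (-1.37, technical SE 0.21). The 2-fold line lies within 1 technical SE of the difference from untreated. The 0.01 uM array differed from untreated by 0.23 (technical SE 0.20).

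Snai2, the related repressor formerly called Slug, followed the same order with smaller steps. Its probe at chr16:14709361-14709420 read 4.17 untreated, 4.31 at 0.01 uM and 3.52 at 1 uM. The 1 uM array was 1.56-fold lower than untreated (log2 difference -0.64, technical SE 0.20), short of 2-fold, and the sign turned to 0.04 when the arrays were scaled on spike-in controls. Both differences come from the same pair of arrays, so a constant added to either array cancels when they are set against each other. By that measure the Snai1 difference was lower than the Snai2 difference by 0.50 (log2 difference -0.50, technical SE 0.29).

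The upstream region of Snai1 is shown because this gene differed and the factor it encodes binds E-boxes. The 250 bases before its transcription start, chr2:167537945-167538194 of GRCm38.p6 on the plus strand from RefSeq, are printed with the E-box CACCTG in capitals.
Snai1 upstream region: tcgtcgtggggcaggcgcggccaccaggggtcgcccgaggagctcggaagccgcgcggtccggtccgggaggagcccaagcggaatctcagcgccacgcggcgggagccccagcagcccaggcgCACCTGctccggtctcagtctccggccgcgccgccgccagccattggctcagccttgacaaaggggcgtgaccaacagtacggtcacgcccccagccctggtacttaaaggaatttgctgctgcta
The motif CACCTG was searched on both strands, and no other motif was searched, so no overlap arises. It occurs once, starting 126 bases before the start site. Promoters of 5 of the 10 genes were in the RefSeq table (Snai1, Twist1, Twist2, Zeb2 and Vim), and CACCTG was found in 1 of the 5, Snai1. Of 32851 mouse promoters of the same length, 17.2% held it. Such a match describes letters in this window and says nothing of binding.

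The Twist pair differed little on the scale of the 75th percentile. Twist1, a basic helix-loop-helix factor of mesoderm and neural crest, read 1.40 untreated, 1.47 at 0.01 uM and 1.13 at 1 uM through its probe at chr12:34644411-34644470. Its log2 difference at 1 uM against untreated was -0.27 (technical SE 0.21), and it was 0.42 under spike-in scaling. The Snai1 difference was below that of Twist1 by more than the technical error (log2 difference -0.88, technical SE 0.29), and any scaling that adds 1 constant per array cancels in this comparison. Twist2, also called Dermo1 and expressed in dermal and osteoblast precursors, is read at chr1:93744519-93744577. It stood at 0.54 untreated, 0.49 at 0.01 uM and 0.57 at 1 uM, and all differences between its 3 arrays were smaller than their technical SE. Under spike-in scaling its 1 uM difference was 0.71, against 0.03 with the 75th percentile.

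Zeb1, a zinc-finger and homeodomain repressor of Cdh1, read 2.60 untreated, 2.57 at 0.01 uM and 2.34 at 1 uM through a probe at chr18:5774613-5774672. Its difference at 1 uM was -0.26 (technical SE 0.20), and 0.42 under spike-in scaling. Neither dose differed from untreated by as much as 2-fold in Zeb1.

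Zeb2, the paralog of Zeb1, had 5 probes on the minus strand of chromosome 2, and they disagreed. The brightest, A_52_P596008 at chr2:44842774-44842833, is listed on the RefSeq transcript NM_015753 and read 1.72 untreated, 1.71 at 0.01 uM and 1.89 at 1 uM. A second probe of that transcript, A_51_P121206 at chr2:44844068-44844127, read -0.44, -0.60 and -0.25 in the same order. Both were slightly higher at 1 uM than on the untreated array, by 0.17 and 0.18 on the log2 scale (technical SE 0.20 and 0.22). Probe A_52_P526372 of the same transcript, at chr2:44840038-44840097, read -2.24 untreated and -2.75 at 1 uM and was not well above background at 0.01 uM, and its 1 uM difference of -0.51 had a technical SE of 0.39.

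The Zeb2 probe that differed most, A_52_P587928 at chr2:44876512-44876571, is listed on the cDNA AK031541 and not on the RefSeq transcript. It read -1.49 untreated, -1.96 at 0.01 uM and -0.04 at 1 uM, so the 1 uM array stood above both others. The 1 uM array was 2.73-fold higher than untreated (log2 difference 1.45, technical SE 0.23) and 3.78-fold higher than 0.01 uM (1.92, technical SE 0.34). Within the arrays, its 1 uM difference exceeded that of the brightest Zeb2 probe by 1.28 (technical SE 0.31). At 0.01 uM the same excess was -0.46 (technical SE 0.41). The fifth probe, A_51_P106893 at chr2:44864778-44864837 on the cDNA AK051204, was not well above background on any array. Which exons or introns these positions fall in was not looked up, since no mm9 annotation was used here.

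**Figure D2:**
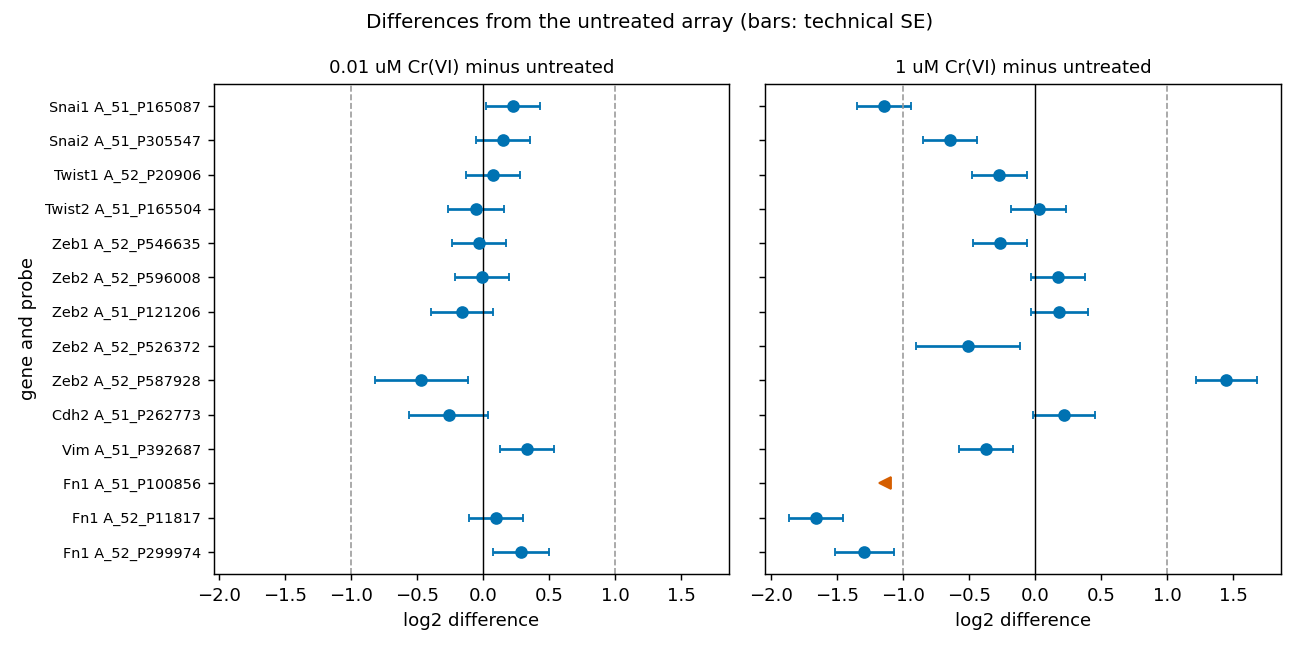
Log2 difference from the untreated array (horizontal axis) for the 14 probes compared (vertical axis), at 0.01 uM on the left and 1 uM on the right. Points are measured differences with technical SE bars, the triangle is a bound for a probe with saturated spots, dashed lines mark 2-fold, and 2 probes without a measurable difference at 0.01 uM have no point. No measured point lies past 2-fold at 0.01 uM, and Snai1, the 3 Fn1 probes and 1 Zeb2 probe do at 1 uM.

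Of the cadherins, Cdh1 was below detection and Cdh2 was read by a single probe. Cdh1, which encodes E-cadherin, has 1 probe at chr8:109193812-109193871, printed in 10 spots on each array. After outlier spots were left out, 28 spots remained over the 3 arrays, and 0 of the 28 were well above background. Their mean levels were -4.65 untreated, -3.84 at 0.01 uM and -4.20 at 1 uM, with SDs between spots of 0.47, 0.75 and 0.46. These readings lie below the dimmest signals called well above background (-2.98, -2.11 and -2.80 in the same order), so no fold is given, and a difference in Cdh1 was not detectable at this signal.

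Cdh2, which encodes N-cadherin, was measured by 1 of its 3 probes. Probe A_51_P262773, on NM_007664 at chr18:16747386-16747415, read -1.05 untreated, -1.31 at 0.01 uM and -0.83 at 1 uM. The 1 uM array was higher than untreated by 0.22 on the log2 scale (technical SE 0.24), which is within that error. The other 2 probes, A_52_P164578 and A_52_P322725, are listed on the cDNAs AK084821 and AK087418 and were not well above background on any array.

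Vim, the main intermediate filament gene of mesenchymal cells, was read by A_51_P392687 at chr2:13504232-13504291. Its level was 6.47 untreated, 6.81 at 0.01 uM and 6.10 at 1 uM. The 1 uM array was lower than untreated by 1.29-fold (log2 difference -0.37, technical SE 0.20), and the sign turned to 0.31 under spike-in scaling. On the untreated array 22 of the 58 pixels of this spot were saturated although the spot was not marked as saturated, so its untreated level may be an underestimate. The second Vim probe, A_52_P287532 on the cDNA AK033175, was not well above background on any array.

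Fn1, a matrix protein that integrins assemble into fibrils around the cell, was lower on the 1 uM array by all 3 probes printed above. A_52_P11817 read 3.96 untreated, 4.06 at 0.01 uM and 2.30 at 1 uM, and A_52_P299974 read 0.28, 0.56 and -1.01 in the same order. The untreated and 0.01 uM arrays lay close together for both, and the 1 uM array stood apart. Against untreated, the 1 uM array was 3.16-fold lower by the first (log2 difference -1.66, technical SE 0.20) and 2.45-fold lower by the second (-1.29, technical SE 0.22). Against 0.01 uM, it was 3.38-fold and 2.98-fold lower. Relative to Vim within the same arrays, A_52_P11817 was lower at 1 uM by more than the technical error (log2 difference -1.29, technical SE 0.29). A_52_P11817 is the Fn1 probe with the largest difference, and the untreated Vim spot had saturated pixels, so this gap may be overstated.

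The brightest Fn1 probe, A_51_P100856, was printed in 10 spots, which shows the reading error directly where the spots are not saturated. Spot levels ran between 6.44 and 6.58 untreated, between 6.56 and 6.69 at 0.01 uM and between 5.23 and 5.40 at 1 uM, with SDs of 0.042, 0.040 and 0.053. The spots of the 1 uM array did not overlap those of the other arrays. With SDs this small a far smaller difference would also part the spots. The share of other replicate-spot probes that do so is not given. On the untreated array 6 of the 10 spots were saturated, so the untreated range and SD may understate the reading error. For the same reason the 1 uM array was at least 2.20-fold lower than untreated, and no 0.01 uM difference from untreated is given for this probe. Against the 0.01 uM array it was 2.40-fold lower (log2 difference -1.26). These spots share 1 RNA on each array and measure the reading, not the spread between cultures.

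**Figure D3:**
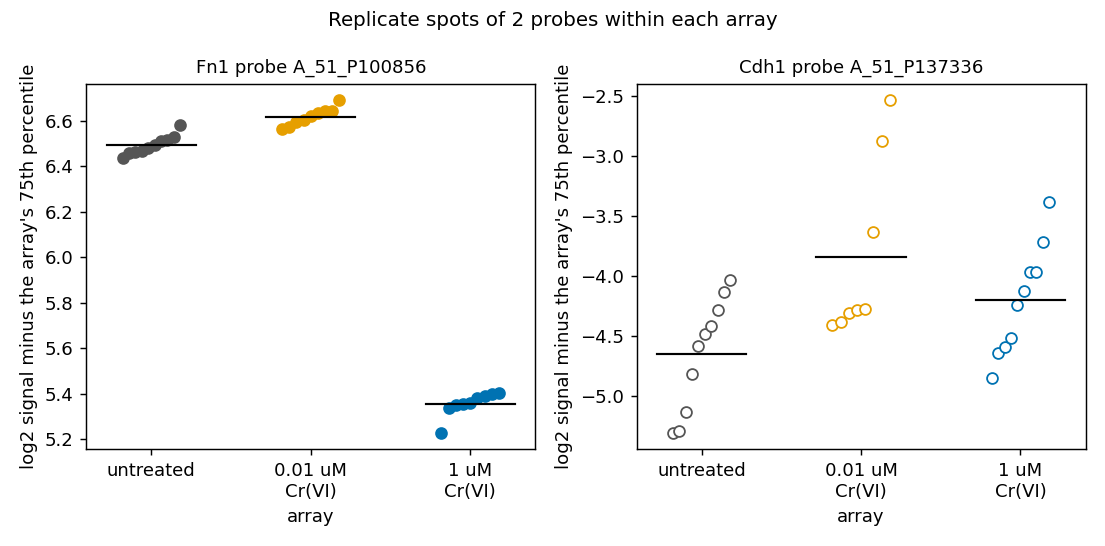
Levels of the replicate spots (points) and their mean (line) on each array (horizontal axis) for Fn1 probe A_51_P100856, left, and Cdh1 probe A_51_P137336, right, in log2 signal relative to the 75th percentile of the array. The Fn1 spots of the 1 uM array lie between 5.23 and 5.40, below every spot of the other arrays, while the open Cdh1 spots were not well above background and overlap between arrays.

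At 0.01 uM against untreated, 0 of the 14 probes and 0 of the 9 genes were at least 2-fold apart. Only 12 probes and 8 genes gave a measured difference. The saturated Fn1 probe A_51_P100856 and Zeb2 probe A_52_P526372 were set to 0 by rule and could not be called. The plain difference of A_52_P526372 was -2.15 (technical SE 1.46), with its 0.01 uM level not well above background. Over all features the share was also small, 0.452% of 17257 probes (0.290% higher, 0.162% lower) and 0.428% of 11915 genes (0.260% higher, 0.168% lower). The median difference was 0.07 over the member genes and 0.05 over all genes. The largest measured difference was that of Zeb2 probe A_52_P587928, at -0.47 (technical SE 0.35), and Vim followed at 0.33 (technical SE 0.20), which was -0.07 after quantile normalization.

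At 1 uM against 0.01 uM, 1 of 14 probes was higher and 4 were lower by 2-fold or more, where 5.12% and 6.31% of 17356 probes were. Of 9 genes, 0 were higher and 2 (Snai1 and Fn1) were lower by 2-fold or more, against 5.20% and 6.44% of 12059 genes. This comparison shares the 1 uM array with the comparison against untreated, so their likeness is no independent evidence. Snai2 was lower by 1.73-fold (log2 difference -0.79) and Vim by 1.63-fold (-0.71). The Vim difference was -0.14 after quantile normalization, -0.21 after loess and -0.33 with spike-ins. By the mean of its probes in place of the brightest, Zeb2 was higher by 1.02 on the log2 scale, past 2-fold. That mean takes in probe A_52_P526372 at its plain difference of 1.64. This probe was not well above background at 0.01 uM, so the call rests in part on a background reading. Cdh2 was higher by 0.48 on the log2 scale (technical SE 0.30).

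The values depended on how the arrays were scaled. Scaled on 5 unsaturated spike-in controls, the median of all detected probes was 0.61 at 1 uM against untreated, against -0.07 with the 75th percentile. Snai1 was then at -0.46 and the 3 Fn1 probes were at -0.45, -0.97 and -0.61, all still negative and short of 2-fold. Zeb2 probe A_52_P587928 was at 2.13. This scaling adds 1 constant per array, so the order of the 14 probes compared could not change. Loess scaling put the saturated Fn1 probe A_51_P100856 at -0.92 and normexp background correction put A_52_P299974 at -0.99, both just short of 2-fold.

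**Figure D4:**
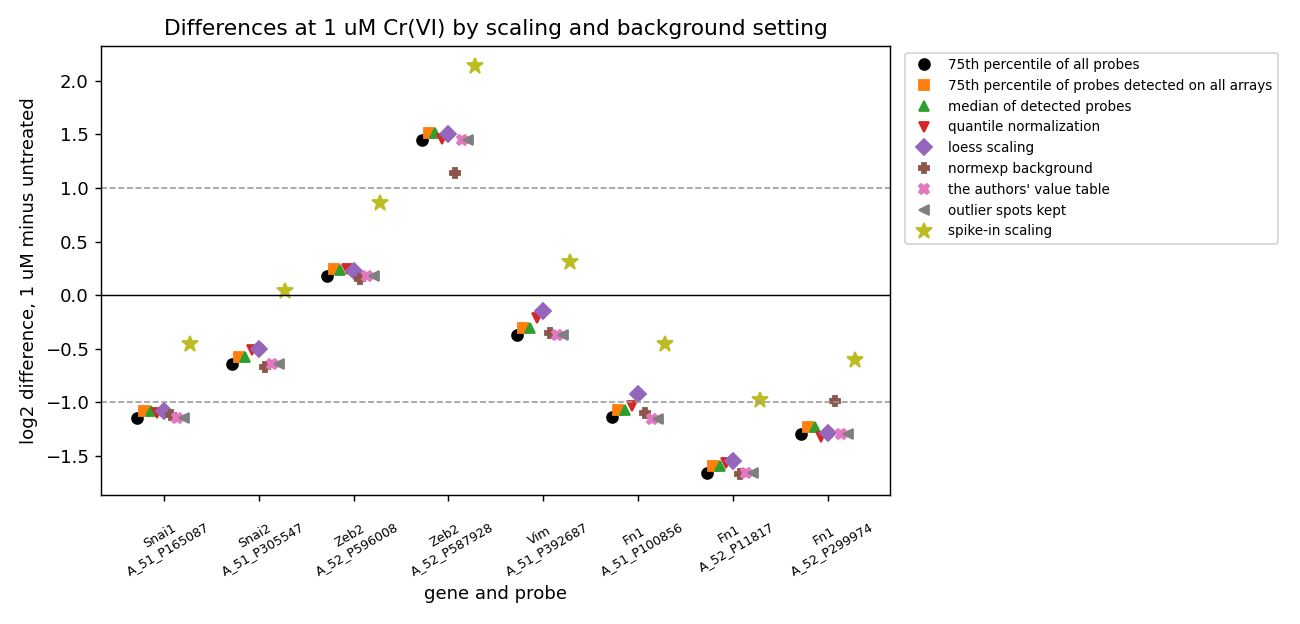
Log2 difference at 1 uM minus untreated (vertical axis) of 8 probes of Snai1, Snai2, Zeb2, Vim and Fn1 (horizontal axis) under 9 scaling, background and spot settings (symbols), with dashed lines at 2-fold. Spike-in scaling (stars) lies above the other settings for every probe shown, by enough to turn the sign for Snai2 and Vim and to bring Snai1 and Fn1 inside 2-fold.

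By the Euclidean distance between the 2 log2 differences from untreated, the genes nearest to Snai1 among 10339 were Hexim1 (0.014), Kazald1 (0.017) and Adm (0.018). These distances are smaller than the technical SE of either difference, so the order of near genes is not resolved. None are given for Fn1, whose untreated level was saturated. Likeness over 3 arrays is a description of these libraries alone.

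The other genes around the members were counted in 13 lists of 160 genes in all, and their differences are relative to the 75th percentile. Spike-in scaling adds 1 constant to each of them, as it does to the members. Other transition factors and their partners had 11 of 13 genes compared at 1 uM against untreated. By their brightest probes 0 were 2-fold apart, with a median of -0.10. Tcf12 was at 0.21 by its brightest probe, with other compared probes at 0.46 and 1.52. Prrx2, a paired-related homeobox factor of mesenchyme, differed by -0.37. Its paralog Prrx1 differed by 0.14, with other compared probes at 0.08, 0.16, 0.54 and 1.13. Of the corepressors and chromatin partners of these factors, 13 of 14 were compared and 0 were 2-fold apart, with a median of -0.06. Rbbp4, a histone-binding subunit of several repressor complexes, differed by -0.21 and Rcor1, the CoREST scaffold, by 0.04. Of 8 genes that govern the stability of the Snail protein, 0 were 2-fold apart, with a median of -0.03. There Csnk2a1, a casein kinase subunit, differed by 0.12 and the phosphatase Ctdsp1 by -0.54.

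Junction and filament genes gave a mixed picture. Of 13 other cadherins, 5 could be compared. Cdh11, a cadherin of mesenchymal cells and osteoblasts that was well above background on every array, was 1.99-fold lower at 1 uM (-0.99), with other probes at -0.67 and -0.91. Cdh5, the endothelial VE-cadherin, was at least 3.69-fold higher at 1 uM and Cdh10, a type II cadherin, at least 2.41-fold higher, since neither was detected above background without Cr(VI). Each rests on 1 dim probe, at levels of -1.10 and -1.71 at 1 uM. Cdh5 has 2 probes and Cdh10 has 7, and none of the others could be compared between any 2 arrays. Cdh17, the liver-intestine cadherin, was at least 2.61-fold lower, since it was not well above background at 1 uM. Of 12 catenins and adherens junction partners, 9 were compared and 0 were 2-fold apart by their brightest probes, with a median of -0.03. Ctnnal1 differed by -0.91, with other probes at -0.91, -1.22 and -0.52. Ctnna1, which encodes alpha-catenin, differed by -0.03 by its brightest probe and by 1.16 by another, and Afdn, which encodes afadin, differed by 0.39, with other probes at 0.68 and 0.98. Of 10 intermediate filament and linker genes, 7 were compared. Nes, which encodes the progenitor filament protein nestin, was 2.76-fold higher and Synm, which encodes synemin, 2.33-fold lower, with a second Synm probe at -0.42.

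Genes around fibronectin and of the mesenchymal effector set were also counted. Of 14 fibronectin receptor and assembly genes, 12 were compared and 0 were 2-fold apart by their brightest probes, with a median of 0.03. The syndecans Sdc4 and Sdc2, coreceptors in matrix adhesion, differed by 0.04 and -0.06, with second probes at -0.81 and 0.40. Other probes of the adhesion proteins Tln1 (-3.02), Pxn (-1.42) and Tns1 (1.34) were past 2-fold while their brightest were at 0.27, -0.74 and 0.82. Further probes inside 2-fold were at 0.08 for Tln1 and at 0.75 and 0.30 for Tns1. Of 12 genes that carry transforming growth factor beta signals, 11 were compared. Tgfbr1, a receptor of that factor, was 2.02-fold higher and Smad7, an inhibitor that the pathway itself induces, 2.29-fold lower. Tgfbr2 was at -0.36 by its brightest probe and at -1.38 by another. Of 12 mesenchymal effector genes, 11 were compared, 0 were 2-fold higher and 2 were 2-fold lower, with a median of -0.46. Over all genes the median computed in the same way, with bounds taken at their value, was -0.015. Acta2, which encodes smooth muscle actin, was at least 2.03-fold lower by a probe saturated on the untreated array, and its other probes ran between -3.22 and -0.95. At 0.01 uM against untreated, 0 genes of the 13 lists were 2-fold apart.

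**Figure D5:**
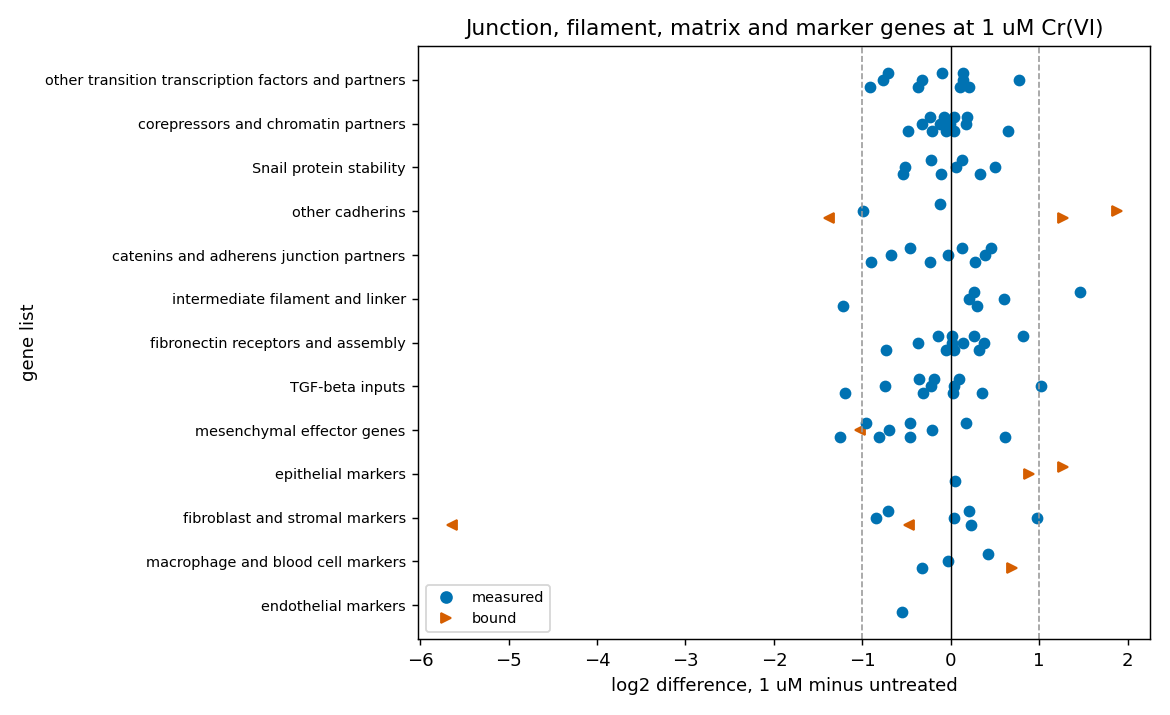
Log2 difference at 1 uM minus untreated (horizontal axis) of the genes compared in each of 13 lists (vertical axis), with dots for measured differences and triangles for bounds. Dashed lines mark 2-fold. Each gene is shown by its brightest probe. Thy1, a fibroblast marker, lies farthest from 0, and the transition factor, corepressor and catenin lists lie within 2-fold.

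Marker lists were set beside these results because the members also mark cell types. Of 10 fibroblast and stromal markers, 9 were well above background at 1 uM, 10 at 0.01 uM and 10 untreated. Thy1, a surface glycoprotein of fibroblasts, was lower at 1 uM than untreated, by a log2 difference of -5.64 or more negative, a bound. It rests on 1 of 2 Thy1 probes, and the other could not be compared between any 2 arrays. Of the 10 stromal markers compared, 0 were 2-fold higher and 1, Thy1, was 2-fold lower. Their median was 0, with bounds at their value and genes saturated on both arrays set to 0. Of the markers with 1 probe, Lum differed by 0.98, Ly6a by 0.23, Eng by 0.04 and Pdgfrb by -0.85. Of 24 epithelial markers, 3 were well above background at 1 uM, 1 at 0.01 uM and 1 untreated. At 1 uM against untreated, Krt19, a simple epithelial keratin, was higher by at least 2.41-fold and Pkp1, a desmosomal plakophilin, by at least 1.85-fold, while Krt7 differed by 0.05. The defining markers Epcam, Krt8, Krt18 and Ocln were not well above background on any array. The summed linear signal of that list, in multiples of the 75th percentile, was 1.71 at 1 uM, 1.70 at 0.01 uM and 1.18 untreated. These sums also take in the probes not well above background. At 0.01 uM and untreated, Krt7 alone was well above it, at levels of -1.28 and -1.42. The rest of those 2 sums is background signal and is no measure of marker expression. Of 13 macrophage and blood cell markers, 4, 3 and 3 were well above background in that order, with summed signals of 11.2, 10.4 and 9.65, and Ptprc was not. Cd14 differed by 0.43 and Cd68 by -0.04 at 1 uM against untreated. Of 5 endothelial markers 1 was well above background, Vwf, at -0.55, and Pecam1, Kdr and Tek were not. The part of these cell markers in the Snai1, Zeb2 and Fn1 differences was not tested.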

How the data were processed

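Total RNA labelled with Cy3 was hybridised to Agilent whole-genome mouse arrays, 1 array per group. Agilent Feature Extraction 10.5.1.1 produced the intensity of each spot, per the file headers. The authors also deposited a table of log2 values, whose making is not stated in the labels or headers used here. Compared with the scanner output, every column differed from log2 processed signal by 1 constant (9.45 untreated, 9.01 at 0.01 uM, 9.56 at 1 uM), within 0.01 for at least 99.8% of 41167 probes, and this constant equals the 75th percentile of the array. The column medians were -4.23, -3.96 and -4.03. Scale and centring are thus known, and the values are levels with no direction.

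The scanner values were used here. Control spots and outlier-flagged spots were left out, spots of a probe were averaged as log2, and the 75th percentile over all probes of the array was subtracted. For each gene the brightest probe was taken. Probes were compared where at least 1 of the 2 arrays was well above background. Where the other was not, the brighter level was set against the higher of the dim level and the lowest level well above background on that array, and a saturated brighter spot also gave a bound. Features at least 2-fold apart were counted. Probes were named by RefSeq accession (25094), symbol (6332) or synonym (1640), and 8101 kept the file's name, with coordinates in mm9 from the files. Technical SE came from the error column of the scanner software. Alternatives, 12 in all, covered scaling, background, filters, probe choice and threshold, with limma 3.58.1 in R 4.3.3 for normexp and Python 3.11.15 otherwise, and are given in the closing section. The number of arrays limits the precision. The counting was tested on simulated data.

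Members and lists were chosen with earlier results of these data known. Named genes were all members, up to 4 genes per list and direction at least 2-fold apart at 1 uM, the 2 brightest of lists with none, and the 3 genes nearest to each member at least 2-fold apart between any 2 arrays, with Fn1 left out because of saturation. Other genes named were chosen after their values were seen. They were the defining markers not well above background, Pkp1, Krt7, Cdh11, Tln1, Pxn, Tns1, Lum, Ly6a, Eng, Pdgfrb, Ctnnal1, Tcf12 and Tgfbr2. Some genes that met the rule are left out of the text and not reported here.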

Additional observations from a re-analysis of the deposited data

How the results depend on the processing

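No paired analysis was possible because each group had 1 array, and for the same reason no array could be left out. Snai1 stayed negative at 1 uM against untreated under all 11 alternatives and past 2-fold in 10. Under spike-in scaling the median difference of the member genes was 0.42 at 1 uM against untreated, 0.39 at 0.01 uM against untreated and 0.029 at 1 uM against 0.01 uM, and in the 2 comparisons of 1 uM 0 members were past 2-fold. Loess left 1 member past 2-fold in both comparisons of 1 uM, quantile normalization 1 at 1 uM against 0.01 uM, and a 3-fold threshold 0 in both. Genes past 2-fold at 1 uM against untreated numbered 1298, and 367 at 3-fold, 2506 with no filter, 736 with normexp and 3313 with spike-ins. At 1 uM against 0.01 uM they numbered 1403, and 424, 2474 and 894 under the first 3 of these. At 0.01 uM against untreated they numbered 51, and 11 at 3-fold, 839 with no filter, 14 with normexp and 16 with both arrays well above background. The other lists hold 160 genes, not all of them compared, and 11 were past 2-fold at 1 uM against untreated. Over all genes, 1298 of the 12450 compared were. The lists had 6 with both arrays well above background, 5 with normexp and 22 with spike-ins, and at 0.01 uM 0, and 2 with no filter. The share of higher genes at 1 uM against untreated was 53.4%, and 63.3% with loess, 38.7% with normexp and 94.7% with spike-ins. At 1 uM against 0.01 uM it was 44.7%, and 57.6% with the percentile of detected probes, 57.7% with loess and 78.7% with spike-ins. At 0.01 uM against untreated it was 60.8%, and 48.3% with the percentile of detected probes, 72.3% with quantile normalization and 92.9% with spike-ins. Zeb2 passed 2-fold at 1 uM against 0.01 uM with the mean of probes, which takes in a probe not well above background at 0.01 uM. No called member changed sign. The cause of these shifts was not tested. Signals near background, as for Cdh1, and saturation, as for Fn1, limit the values.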
